A study of Ovis aries with 7 samples.

Results

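Nuclear genes for oxidative phosphorylation were described in RNA of 8-cell embryos of the sheep, Ovis aries. Members were taken by gene name alone, as rows called NDUFA, NDUFB, NDUFC, NDUFS or NDUFV with a number, SDHA to SDHD, and names that begin with UQCR, COX4 to COX8 or ATP5. This gave 61 of the 31304 rows, and the names CYC1 and CYCS, also in the rule, matched no row used here. Of the 61, 36 encode subunits of complex I, 4 of complex II, 1 of complex III, 3 of complex IV and 17 belong to complex V. Other nuclear subunits of complexes III and IV were not analysed here.

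The study has 4 samples of embryos cloned by nuclear transfer from somatic cells (SCNT) and 3 of embryos from in vitro fertilization (IVF), with no other treatment named. Only the IVF libraries carry column names that match a sample label, so the SCNT samples were not analysed here and no difference between the groups is given. Values are TPM, a transcript level per gene length relative to the library total, and a mean ± SD is over n = 3 IVF libraries. TPM keeps no sequencing depth, so depth is unknown and no counting interval is given. The number of embryos per library was not given in the sources used here, and some of the spread among libraries may be technical. An exact two-sided sign-flip test on 3 libraries cannot give a p below 0.25, so all comparisons are descriptions with no test.

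Oxidative phosphorylation takes place in the inner mitochondrial membrane. Complex I and complex II pass electrons from NADH and succinate to ubiquinone, complex III passes them on to cytochrome c and complex IV to oxygen. Protons pumped by complexes I, III and IV drive complex V, the ATP synthase. Most subunits are encoded in the nucleus and imported, while a small hydrophobic set is encoded in mitochondrial DNA. Before implantation mammalian embryos rely largely on mitochondria inherited from the oocyte, which supply much of their ATP.

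Markers of embryonic genome activation and of oocytes were high, and those of the other listed cell types were low. All 5 genes listed for embryonic genome activation (ZSCAN4, ARGFX, KLF17, EIF1AX and TFAP2C) reached 1 TPM in every library, with a summed level between 1136 and 2538 TPM. The 6 oocyte genes summed to between 946 and 1427 TPM. In replicate 1 their sum of 1215 TPM exceeded the 1136 TPM of the genome activation genes. These 2 lists therefore do not separate embryo RNA from RNA left from the oocyte. Summed levels were 9.86 to 18.5 TPM for 8 cumulus and granulosa markers, 11.5 to 20.4 TPM for 9 fibroblast markers, 1.06 to 3.03 TPM for 6 sperm markers and 4.76 to 10.5 TPM for 4 striated muscle markers. FOXL2, PTX3, PRM1 and AKAP4 were listed at 0 in all libraries. Other markers of these lists were present. In replicates 1, 2 and 3 HAS2, a cumulus marker, was at 9.86, 13.1 and 7.09 TPM. VIM, a fibroblast marker, was at 6.48, 8.84 and 8.37 TPM, and CKM, a muscle marker, at 1.88, 5.33 and 7.05 TPM. Each of these 3 was the highest of its list in every library. In RNA of whole embryos, fewer cells of a type and less RNA per cell cannot be told apart.

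Nearly all members were present and most were abundant. At 1 TPM or more in all 3 libraries stood 59 of 61 members (96.7%), beside 49% of 16526 rows with a gene symbol. At 100 TPM or more in all libraries stood 31 members (50.8%), beside 4.73% of symbol rows. The members lay at the 90th percentile of symbol rows or above in 45 cases. Their median was 109, 127 and 136 TPM in replicates 1, 2 and 3, a mean of 124 ± 13.5, against 1.46, 1.74 and 1.32 TPM over all symbol rows in the same libraries. Together they took 2.30%, 2.13% and 2.56% of TPM in replicates 1, 2 and 3.

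Among the 59 members at 1 TPM or more in all libraries, mean levels spanned a ratio of 1051, from NDUFS4 to NDUFA4. By mean TPM, 4 members were at 1000 or more, 29 between 100 and 1000, 25 between 10 and 100, and 3 under 10. The 5 highest, NDUFA4, ATP5MK, ATP5PF, ATP5MG and NDUFB6, held 51.5 ± 3.76% of the members' summed TPM. The order of levels was shared across libraries, and the same was not computed over all symbol rows. Over the 61 genes Spearman's rho was 0.943 for replicates 1 and 2, 0.974 for replicates 1 and 3 and 0.980 for replicates 2 and 3, given without p since genes are not replicates.

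**Figure D1:**
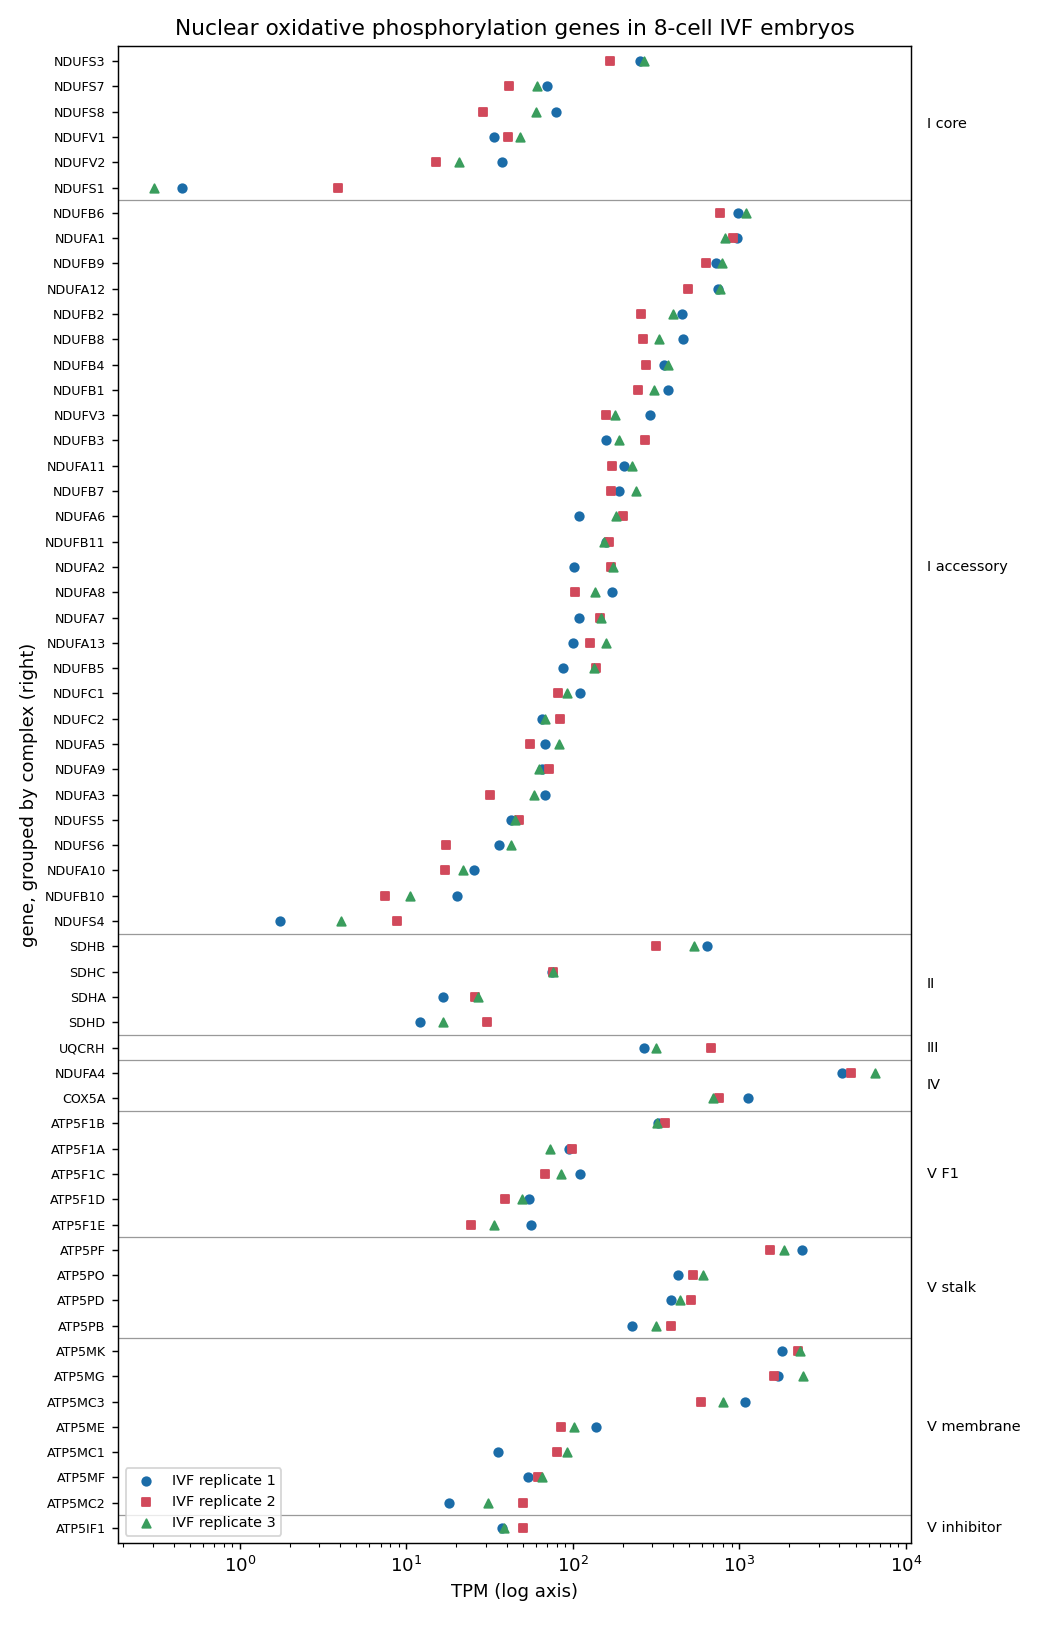
Each row is a gene and each symbol its TPM in an IVF library, on a log axis, with genes grouped by complex and sorted by mean. Drawn are 59 members with a mean of at least 1 TPM, from NDUFS1 at the low end to NDUFA4 at the high end, and NDUFA4L2, with a mean under 1 TPM, is left out.

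Complex I, the entry point for electrons from NADH, was uneven between its core and its accessory subunits. The 7 nuclear core subunits, which carry the flavin and the iron-sulfur clusters, had a median of 38.3 ± 9.55 TPM. The 29 accessory subunits, which surround and stabilise them, had a median of 142 ± 27.1 TPM. The accessory median exceeded the core median 2.94-fold in replicate 1, 5.44-fold in replicate 2 and 3.27-fold in replicate 3, so the direction was the same in 3 of 3 libraries.

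Among core subunits NDUFS3, part of the quinone-binding module, was highest at 253, 167 and 267 TPM in replicates 1, 2 and 3. NDUFS7 and NDUFS8, which carry iron-sulfur clusters, averaged 57.6 ± 14.5 and 56.1 ± 25.4 TPM. NDUFS8 stood at 79.4, 29.1 and 59.9 TPM in replicates 1, 2 and 3, so replicate 2 was the low library. NDUFV1, which binds the flavin and oxidises NADH, was at 33.6, 40.8 and 48.2 TPM. NDUFV2, its iron-sulfur partner, was at 37.7, 15.0 and 20.7 TPM.

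The lowest core subunit was NDUFS1, the largest of them and a carrier of several iron-sulfur clusters. It had 0.447, 3.91 and 0.307 TPM in replicates 1, 2 and 3. NDUFS1 was above 1 TPM in replicate 2 alone, at the 49.9th percentile of symbol rows by mean. NDUFV1 exceeded NDUFS1, with which it works in the NADH-oxidising module, 75.1-fold, 10.4-fold and 157-fold in the 3 libraries. In replicates 1 and 3 NDUFS1 lay under 1 TPM, near the floor, so the ratios there are uncertain. In the reference table the span of NDUFS1 overlaps no other gene.

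Among nuclear subunits of complex I, the NDUFB genes, which encode accessory subunits of the membrane arm, had the higher median. The 11 NDUFB genes had a median of 305 ± 48.1 TPM and the 12 NDUFA genes of complex I a median of 131 ± 24.0 TPM. By mean NDUFB6 was highest, with 982, 771 and 1098 TPM in replicates 1, 2 and 3. NDUFA1, a short single-span membrane subunit, was at 964, 923 and 823 TPM. NDUFB9 was at 723, 629 and 792 TPM.

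Next came NDUFA12, a subunit of the peripheral arm, at 748, 493 and 771 TPM. NDUFB2, NDUFB8, NDUFB4 and NDUFB1 averaged between 310 and 368 TPM. NDUFB11 was among the most even members, at 159, 164 and 155 TPM.

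At the low end stood NDUFS4, an accessory subunit of the NADH-oxidising module whose loss causes Leigh syndrome in humans, at 1.75, 8.82 and 4.04 TPM. NDUFB10, a membrane-arm subunit, was at 20.1, 7.42 and 10.6 TPM, highest in replicate 1. NDUFS1 and NDUFS4 had the lowest means of complex I, and both were highest in replicate 2. The span of NDUFS4 overlaps LOC105602544 and LOC121816807 in the reference table, so reads there may be hard to assign.

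Complex II, succinate dehydrogenase, consists of 4 nuclear subunits and links the citric acid cycle to the respiratory chain. SDHB, its iron-sulfur subunit, had 637, 316 and 535 TPM in replicates 1, 2 and 3. SDHC, a membrane anchor, was at 75.5, 76.5 and 75.7 TPM, the smallest relative spread of any member. SDHA, the flavoprotein with the active site, was at 16.5, 25.7 and 26.8 TPM. SDHD, the other anchor, was at 12.1, 30.6 and 16.5 TPM. The spans of SDHC and SDHD overlap LOC114110816 and LOC105602162, in that order.

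SDHB alone made up 86.0%, 70.4% and 81.8% of the summed TPM of the 4 genes. It exceeded SDHA 38.6-fold, 12.3-fold and 20.0-fold, and SDHD 52.6-fold, 10.3-fold and 32.4-fold, in replicates 1, 2 and 3. All of these ratios were smallest in replicate 2, where SDHB was lowest and SDHD highest. The assembled complex holds its subunits in equal number.

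**Figure D2:**
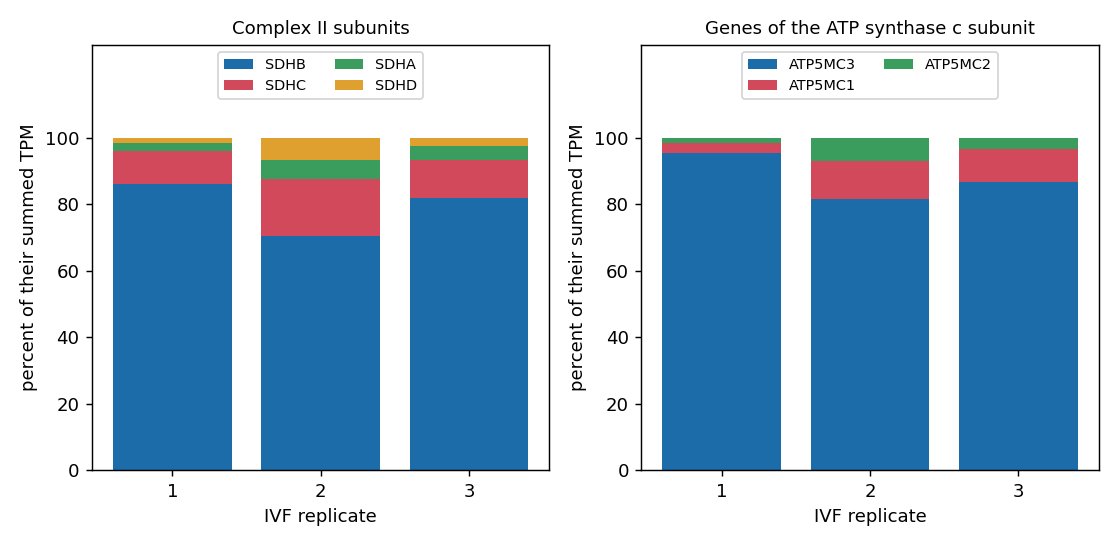
Stacked bars give each gene's percent of the summed TPM in each IVF replicate, for the 4 subunits of complex II (left) and the 3 genes of the ATP synthase c subunit (right). SDHB and ATP5MC3 take most of each bar, and both shares are lowest in replicate 2, at 70.4% and 81.7%.

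UQCRH, the hinge protein of complex III that sits beside cytochrome c1, had 268, 679 and 316 TPM in replicates 1, 2 and 3. Replicate 2 was the high library, opposite to most subunits of complex I. The gene lies wholly within LRRC41 in the reference table, so its value may hold reads of that gene.

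The most abundant member was NDUFA4, once counted as a complex I subunit and now placed in complex IV. It stood at 4151, 4668 and 6529 TPM in replicates 1, 2 and 3. Its paralog NDUFA4L2, known in humans as a gene induced by low oxygen, had 0.00934 and 0.0145 TPM in replicates 1 and 2 and was listed at 0 in replicate 3. COX5A, a matrix-side subunit of complex IV, was at 1128, 754 and 695 TPM. NDUFA4 exceeded COX5A 3.68-fold, 6.19-fold and 9.39-fold in the same order, since NDUFA4 was highest in replicate 3 and COX5A highest in replicate 1.

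In complex V the peripheral stalk and membrane genes had higher medians than the genes of the F1 sector. The 4 stalk genes had a median of 485 ± 64.7 TPM, the 7 membrane genes 108 ± 26.7 TPM and the 5 F1 genes 78.5 ± 13.9 TPM. The F1 list also holds the central stalk genes ATP5F1C, ATP5F1D and ATP5F1E, so its median is not that of the catalytic subunits. ATP5F1B, the catalytic beta subunit, had 323, 356 and 320 TPM in replicates 1, 2 and 3, above the membrane median in each. ATP5F1A, the alpha subunit that alternates with it in the head, was at 94.3, 98.4 and 73.2 TPM. The assembled head holds equal numbers of alpha and beta subunits, and the ratio of ATP5F1B to ATP5F1A was 3.43, 3.62 and 4.37. ATP5F1E, the epsilon subunit, was lowest of the 5 F1 genes by mean, with 56.1, 24.3 and 33.5 TPM, and its span overlaps TUBB1. The span of ATP5F1B overlaps LOC114114231 and LOC114114232.

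The highest members of complex V were a group of small subunits. ATP5MK, a membrane subunit, had 1800.3, 2257 and 2311 TPM in replicates 1, 2 and 3, and its span overlaps TAF5. ATP5PF, the stalk subunit also called coupling factor 6, was at 2394, 1531 and 1862 TPM. ATP5MG, subunit g of the membrane sector, was at 1712, 1617 and 2399 TPM.

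The span of ATP5PF overlaps that of GABPA, which encodes an ETS transcription factor known to regulate respiratory genes. GABPA was at 62.3, 105 and 77.3 TPM, highest in replicate 2, where ATP5PF was lowest. ATP5IF1, the inhibitor that blocks ATP hydrolysis by complex V, was at 37.5, 49.96 and 38.4 TPM.

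Subunit c, which forms the rotating ring of complex V, is encoded by a family whose members differ in the import sequence and give the same mature protein. ATP5MC3 had 1089, 586 and 796 TPM in replicates 1, 2 and 3. ATP5MC1 was at 35.4, 80.7 and 91.9 TPM, and ATP5MC2 at 18.1, 50.4 and 31.0 TPM. The ranges of ATP5MC3 and the other genes did not overlap.

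ATP5MC3 therefore made up 95.3%, 81.7% and 86.6% of the summed TPM of the family. On the log2(TPM + 1) scale ATP5MC3 exceeded ATP5MC1 by 3.62 ± 1.12 and ATP5MC2 by 4.66 ± 1.16, each in 3 of 3 libraries. In the reference table ATP5MC3 lies wholly within LOC121818701, and ATP5MC2 overlaps 2 LOC genes. Paralogs of this family can share reads, so the split among them is uncertain.

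Differences between libraries were moderate for most members. Over the 58 members whose mean reached 5 TPM, the median coefficient of variation was 22.8%, beside 27.8% over 5765 symbol rows with the same cut. These sets were not matched by level, since 45 of 58 members but 1660 of 5765 symbol rows had a mean of at least 50 TPM. Whether members vary less than equally abundant genes was not tested. A ratio of highest to lowest library of at least 2, taken on TPM + 1, was found in 11 of 58 members (19.0%), beside 28.8% of symbol rows. With libraries scaled by the median of ratios the shares nearly met, at 16 members (27.6%) beside 28.5% of symbol rows. Without replicate 2 the count was 1 member (1.72%) beside 7.48% of symbol rows, and without replicate 1 it was 3 members (5.17%) beside 10.2%. Among these 58 the largest ratios on the plain TPM scale belonged to ATP5MC2 (2.79), NDUFS8 (2.73) and NDUFB10 (2.71).

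Replicate 2 was the low library for many members. Of the 58, 29 were lower in replicate 2 than in both others, beside 29.9% of symbol rows, and 17 were higher than in both, beside 47.5% of symbol rows. In complex I 21 of 34 members were lowest there, against 7 of 17 in complex V and 1 of 4 in complex II. Replicate 1 was lowest for 22 of the 58, beside 2164 of 5765 symbol rows, and replicate 3 for 7, beside 1880. By complex, replicate 1 was lowest for 9 of 34 in complex I, 8 of 17 in complex V and 3 of 4 in complex II. NDUFS8, NDUFS6 and NDUFA3 were lower in replicate 2 by 1.22, 1.14 and 0.95 on the log2(TPM + 1) scale. UQCRH, SDHD and ATP5MC2 were higher by 1.22, 1.06 and 1.06.

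The median member differed by -0.25 between replicate 2 and the mean of replicates 1 and 3, and the median symbol row by 0.16, a gap of -0.40. Against replicate 1 alone the medians were -0.12 for members and 0.12 for symbol rows, and against replicate 3 alone -0.24 and 0.18. With libraries scaled by the median of ratios the medians were -0.53 and -0.11, a gap of -0.42. The gap was smaller among abundant genes. Among genes at a mean of 50 TPM or more, 51.1% of 45 members and 42.5% of 1660 symbol rows were lowest in replicate 2, and the gap was -0.22. Mitochondrial ribosomal proteins, encoded in the nucleus like the members, showed a like share, with 36 of 71 lowest in replicate 2. The marker sums of genome activation, oocytes, cumulus cells, fibroblasts and sperm were highest in replicate 2, and that of striated muscle in replicate 3. Within the oocyte list MOS and ZP3 were lowest in replicate 2. The part of these markers in the result was not tested.

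**Figure D3:**
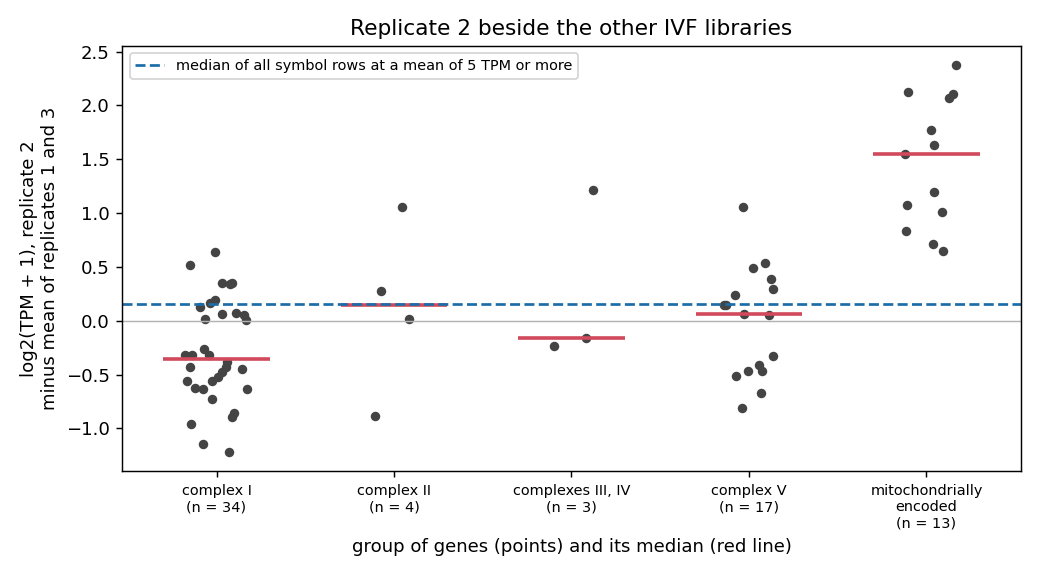
Each point is a gene at a mean of 5 TPM or more, and its height is log2(TPM + 1) in IVF replicate 2 minus the mean of replicates 1 and 3. The median (red line) of complex I lies at -0.35 and that of complex V at 0.06, all 13 mitochondrially encoded genes lie above 0, and the dashed line marks the median of all symbol rows at 0.16.

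The mitochondrially encoded partners stood apart in both level and library. Complex I has 7 subunits from mitochondrial DNA, whose median was 15.2, 27.8 and 11.4 times the median of its 36 nuclear subunits in replicates 1, 2 and 3. ND4 and ND4L were highest of them, at 4306, 6879.9 and 2721 TPM and at 4608, 5820.5 and 3009 TPM. ND6 was lowest, at 62.6, 282 and 66.7 TPM. The RNA was selected by polyA, and its effect on the measured level of mitochondrially encoded RNA was not tested. All 13 encoded subunits were highest in replicate 2, beside 47.5% of symbol rows at a mean of at least 5 TPM. These 13 genes share the mitochondrial DNA and are not 13 separate observations. In that library 29 of 58 nuclear members were lowest, beside 29.9% of those rows. At a mean of at least 50 TPM the shares lowest there were closer, 51.1% of members and 42.5% of symbol rows. The summed TPM of the 13 mitochondrially encoded genes was 0.981, 2.29 and 0.649 times that of the 61 members in replicates 1, 2 and 3. The members hold only 1 gene of complex III and 3 of complex IV. A full mitochondrial set is thus set beside a partial nuclear set.

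Genes that assemble the complexes were present at lower levels than the subunits. Of 27 assembly factors 26 reached 1 TPM in every library, and their median was 16.6 ± 3.04 TPM, beside 124 TPM for the subunits. CMC2, linked to complex IV assembly, had 1333, 565 and 864 TPM in replicates 1, 2 and 3. SDHAF4, which helps SDHA join complex II, was at 471, 293 and 336 TPM. ACAD9, which takes part in complex I assembly, was lowest by mean, with 1.24, 3.29 and 1.33 TPM.

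Related lists gave the surroundings of the pathway. The citric acid cycle, whose dehydrogenases feed the chain, had 13 of 13 genes above 1 TPM in every library and its median was 24.8 ± 5.28 TPM. Citrate synthase (CS) and malate dehydrogenase (MDH2) led at 215 ± 96.7 and 197 ± 42.4 TPM, and OGDH was lowest at 4.92 ± 1.87. Regulators of mitochondrial biogenesis had 12 of 13 at that level, with a median of 10.03 ± 2.62 TPM. The mitochondrial transcription factor TFB2M and the zinc finger factor YY1 led at 202 ± 51.7 and 125 ± 53.6 TPM, while the nuclear receptor gene ESRRA stood at 0.440 ± 0.388.

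Mitochondrial ribosomal proteins, which make the mitochondrially encoded subunits, had a median of 66.2 ± 7.64 TPM over 75 genes. NDUFAB1, the acyl carrier protein that is also a complex I subunit but bears another name pattern, was at 467, 248 and 307 TPM. STMP1, a small mitochondrial protein, was at 340.2 ± 82.5 TPM, and DMAC2L, a partner of complex V, at 0.508 ± 0.0973.

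**Figure D4:**
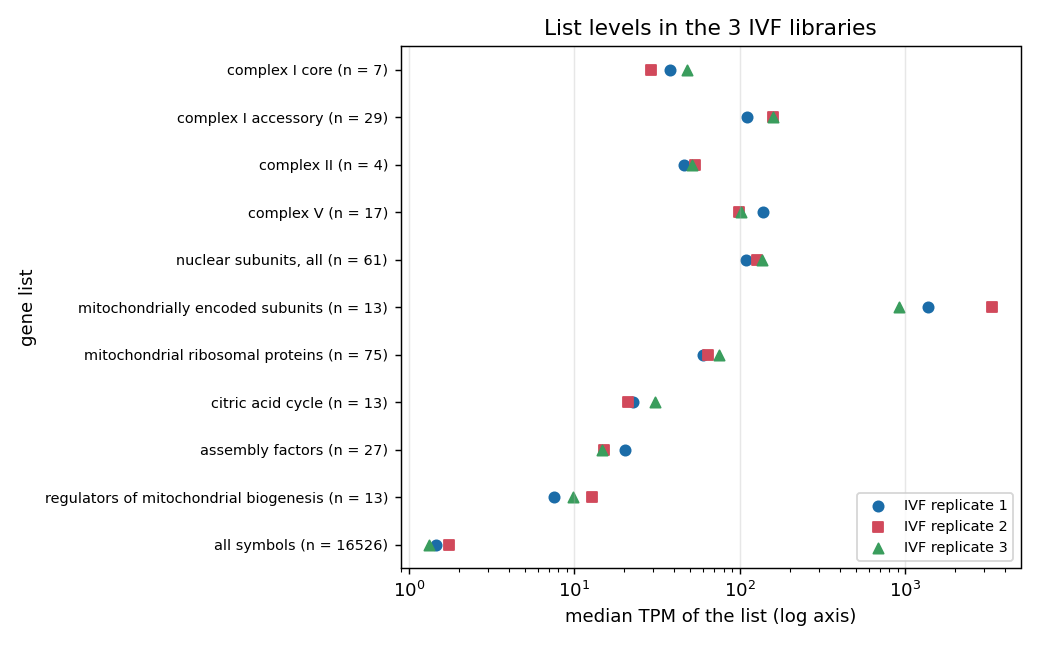
Each symbol is the median TPM of a gene list in an IVF library, on a log axis. Nuclear subunits lie between 109 and 136 TPM, below the mitochondrially encoded subunits and above the citric acid cycle, the assembly factors and the median symbol row in all 3 libraries.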

How the data were processed

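RNA of 8-cell embryos was selected by polyA, amplified for 20 PCR cycles and sequenced with Smart-seq2 as paired 150-base reads, per the labels' protocols. The authors deposited TPM values, and each column used sums to 1000000. The submitters' processing notes name fastp 0.23.4 and HISAT2 2.2.1 with mouse and pig builds. For sheep, the build, annotation and counting tool were not given in the sources used here. Columns were matched to samples by name only. No sample label carries the name of 4 other value columns, which stayed out of every step, though values of 3 of them for the member genes were seen on inspection. TPM depends on gene models and on the library total, so abundant genes lower the others, and depth is unknown.

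All 61 member names matched the ARS-UI_Ramb_v3.0 gene table, used for names and overlaps only. Its build may differ, so no coordinates are given. Log values are log2(TPM + 1). Named genes are the 3 highest and 2 lowest of complexes I (core and accessory apart), III, IV and V, all of complex II, paralog pairs, catalytic or regulatory subunits, the 3 largest ratios between libraries, and from each other list the 2 highest and the lowest. A further set (NDUFA12, NDUFB2, NDUFB8, NDUFB4, NDUFB1, NDUFB11, NDUFV2, NDUFS6, NDUFA3 and GABPA), and the NDUFA and NDUFB groups, were chosen after their values were seen. 1 gene that the rule names is not reported here by name and is left out of the plot of single genes. Members and lists were chosen with earlier results of these data known. Steps were tested on simulated data. Alternatives were other thresholds, pseudocounts and scalings, and leaving out each library. The tools were numpy 2.4.6 and pandas 2.3.3 under Python 3.11.15, with figures by matplotlib 3.10.9.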

Additional observations from a re-analysis of the deposited data

How the results depend on the processing

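Depth is unknown, so low values such as those of NDUFS1 have no known counting error. No paired analysis was possible because only IVF libraries have a mapped column. A planned search of promoter motifs was not run. Counts lowest in replicate 2 and single levels were tried under settings chosen after seeing the data. Under other settings 88 values stayed within 1 SD of the libraries (counts: within 1.5 times), 13 moved further, and none changed sign. For the replicate 2 difference the SD, 0.09, was instead that of its medians against replicate 1 alone and against replicate 3 alone. Part of these counts was fixed by construction. Levels, shares and counts cannot be negative, so only the paralog pairs and the replicate 2 difference could change sign. Leaving out a library cannot move a mean over the libraries by 1 SD, and scaling a library leaves a share of its total unchanged. Members at the detection threshold numbered 57 to 60 throughout. Removing mitochondrially encoded and ribosomal protein genes raised every rescaled value by construction, giving a member median of 149 against 124 TPM, a share of 2.79 against 2.33%, and medians of 171 against 142 (complex I accessory), 60.3 against 50.3 (complex II) and 134 against 112 TPM (complex V). Without NDUFA4L2 the median of complex IV was 2987.5 against 859 TPM, fewer genes being counted. The difference of NDUFA4 and NDUFA4L2, 12.28 on the log2 scale, was 15.51 with a pseudocount of 0.1 and 9.97 with 5, as the pseudocount sets it. Members at least 2-fold apart, 11, were 16 after scaling by the median of ratios, 5 at a mean of 50 TPM, fewer genes being counted, and 1 (without replicate 2) to 11 (without replicate 3) when each library was left out. The median difference of replicate 2, -0.25, was -0.53 after scaling by the median of ratios, which moves all genes, and -0.12 against replicate 1 alone, the cause of which was not tested. Of 122 single-gene levels under other scalings, 98 moved by less than their spread. The other 24 all moved when mitochondrially encoded and ribosomal protein genes were removed, which raises every gene. These counts thus mostly restate the spread of each gene.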

Other observations

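Several values belonged to no comparison of the report. Assembly factors of the same complex differed widely in level. Among those of complex I, NDUFAF8 was at 104 ± 23.2 TPM and NDUFAF7 at 2.65 ± 0.486, and among those of complex II, SDHAF2 was at 217 ± 24.8 and SDHAF3 at 12.1 ± 1.86. TFAM, which packages mitochondrial DNA, was at 49.6 ± 4.14 TPM, POLRMT, the mitochondrial RNA polymerase, at 9.91 ± 3.04, and the coactivator gene PPARGC1A at 1.84 ± 0.289. These genes were chosen after their values were seen.

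A reader following up the table may look first at NDUFS1, the only core subunit of complex I under 10 TPM in every library. Its highest and lowest library were 12.8-fold apart on plain TPM and 3.76-fold apart on TPM + 1. Replicates 1 and 3 lay under 1 TPM, near the floor, so the plain ratio is uncertain. In the ATP synthase, ATP5PF exceeded ATP5F1A 25.4-fold, 15.6-fold and 25.4-fold in replicates 1, 2 and 3. In all, 15 of the 61 members overlap another gene in the reference table, and not all of these are flagged above. Of the 15, 2 lie wholly within a neighbour.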
